A study of Mus musculus with 10 samples.

Results

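Myeloid differentiation is directed by a small set of transcription factors, and 9 of them were examined here in murine leukaemia cells in which the transcript of Meis1 had been reduced. The factors were Cebpa, Cebpb, Cebpd and Cebpe of the C/EBP family, Spi1 (which encodes PU.1), Irf8, Gfi1, Klf4 and Egr1. A probe set was included when the platform annotation gave it exactly 1 gene symbol and that symbol was on the list. This gave 12 probe sets of 8 genes, out of 45037 probe sets and 18193 genes in all, and 0 further probe sets carried a listed symbol among several. Cebpe had no such probe set and was not analysed here.

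The cells were the Mll-AF9 line 4166, which carries a fusion of Mll with AF9, a leukaemia oncogene of myeloid progenitors. For 5 samples the cells received a lentivirus with a short hairpin RNA (shRNA) against Meis1, and for the other 5 the same cells received the empty lentiviral vector, which carried no hairpin. All cells were kept in IMDM medium that contained 2 ng/ml interleukin 3 and 15% fetal bovine serum, selected with puromycin and profiled 48 h after transduction on Affymetrix arrays, 1 array each. The labels pair shRNA sample 1 with control sample 1 and so on, and they leave out whether the 5 pairs are independent cultures. The p-values below therefore speak only for the spread among these 10 samples, part of which may be technical. Values are RMA intensities on a linear scale, and changes are differences of log2 intensity, shRNA minus control, from a paired limma fit over all 45037 probe sets.

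C/EBP proteins are basic leucine zipper factors that bind DNA as dimers. C/EBPα commits progenitors to the granulocyte-macrophage fate and slows the cell cycle, and C/EBPε acts late, on neutrophil granule genes. PU.1, an ETS factor needed by all myeloid cells, recruits IRF8 to shared sites that favour monocytes and dendritic cells, while GFI1, a zinc finger repressor, favours neutrophils. MLL fusion proteins hold progenitors before these programmes complete, and Meis1, a TALE homeodomain factor, acts with Hoxa9 in that state.

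Before the values, the DNA just upstream of 3 of these genes, Cebpa, Irf8 and Gfi1, is shown. Their probe sets took most of their spread from differences between the pairs of arrays, as did some probe sets of other members. A motif of Meis1 could also be looked for in the same stretches. Each stretch is the 250 bases before the RefSeq transcription start in the build GRCm38.p6, 5′ to 3′ on the gene's strand. Motif matches are in capitals. The search used RefSeq windows of 5 of the 9 genes, after a filter by chromosome on the windows of the listed genes.
Cebpa, chr7:35119043-35119292, plus strand: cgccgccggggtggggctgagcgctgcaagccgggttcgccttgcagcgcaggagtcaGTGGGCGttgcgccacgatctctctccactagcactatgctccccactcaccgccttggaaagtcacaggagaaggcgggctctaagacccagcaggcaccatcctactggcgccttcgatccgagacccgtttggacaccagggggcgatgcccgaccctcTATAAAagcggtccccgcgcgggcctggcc
Irf8, chr8:120736108-120736357, plus strand: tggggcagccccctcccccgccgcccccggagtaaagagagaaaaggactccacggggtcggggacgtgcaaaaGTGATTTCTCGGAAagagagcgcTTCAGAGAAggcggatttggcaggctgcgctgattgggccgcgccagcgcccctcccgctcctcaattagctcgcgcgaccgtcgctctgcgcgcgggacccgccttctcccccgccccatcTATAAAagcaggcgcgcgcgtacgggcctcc
Gfi1, chr5:107725806-107726055, minus strand: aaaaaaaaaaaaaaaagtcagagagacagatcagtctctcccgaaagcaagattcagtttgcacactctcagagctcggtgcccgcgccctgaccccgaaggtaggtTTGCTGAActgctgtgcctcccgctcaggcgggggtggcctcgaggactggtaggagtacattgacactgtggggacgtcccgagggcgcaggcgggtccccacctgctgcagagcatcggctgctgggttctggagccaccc

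Motifs were searched on both strands. The Meis motif TGACAG was in 0 of the 7 upstream windows of the 5 genes, against 15.9% of 32851 windows of the same length. Cebpa, Cebpb and Klf4 had 1 window each, Irf8 and Gfi1 had 2 each, and Cebpd had none. With 7 windows, a count of 0 is not read as a lack of the motif. The 7 windows also had 54.0 to 81.6% GC, against a median of 52.4% over all windows. The Cebpa window held the EGR motif GTGGGCG at 186 to 192 bases before the start (7.02% of all windows) and TATAAA at 25 to 30 bases (12.4%). The Irf8 window held TATAAA at 26 to 31 bases and 2 copies of TTCNNNGAA, the palindrome bound by STAT proteins after interferon (7.02%), the farther of which overlaps by 1 base a reverse-strand match to the GFI1 core AATCAC (9.14%). The printed Gfi1 window held 1 match to the C/EBP motif TTGCNNAA (9.56%). The ETS motif AGGAAG (29.5%) was in none of the 3 printed windows. The other Gfi1 window, not printed, held 1 ETS match at 103 to 108 bases before its start and 1 EGR match at 169 to 175 bases. The TTCNNNGAA and TATAAA motifs were added after the sequences had been read. A match describes letters only and is no evidence of binding, and the absence of a match says nothing of sites outside these windows.

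Meis1 itself was lower in each shRNA array than in its partner. Its brightest probe set 1450992_a_at averaged 165 ± 40.2 with the shRNA and 346 ± 56.3 with the empty vector (SD, n = 5 each), a log2 change of -1.09 (SE 0.09, adjusted p = 0.000767 by limma). Of the myeloid progenitor markers, 6 of 8 had a mean log2 level above 5, the granule proteases and peroxidase Mpo, Elane, Prtn3 and Ctsg at 11.0 to 13.3, and Kit, the stem cell factor receptor, was the only one called (it fell by 0.78 in log2 units, adjusted p = 0.00237, or 0.218 in an unpaired fit). Markers of other lineages were dim: 0 of 6 erythroid and megakaryocytic, 0 of 5 lymphoid and 0 of 5 dendritic cell genes were above 5, and 0 of these passed limma's test (2, 0 and 0 at an unadjusted p under 0.05). In the list for mast cells, basophils and eosinophils 1 of 5 was above 5, the basophil protease Mcpt8. The summed intensity of that list was 231.6 to 363 in the shRNA arrays and 290.9 to 613.8 in the controls. RNA integrity was read from control probe sets of Gapdh and actin, as the log2 ratio of their 3 prime to 5 prime signal. This ratio was 0.37 ± 0.02 with the shRNA and 0.28 ± 0.06 with the empty vector (SD, n = 5 each), and was higher in 5 of 5 pairs (exact sign-flip permutation p = 0.0625, two-sided, the smallest this test allows with 5 pairs). As these are bulk samples, a change in a factor's level per cell and a change in the share of cells that express it cannot be told apart.

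With Meis1 reduced, Cebpd was the only member called in the paired fit. Its bright probe set rose 1.53-fold. Of the 12 member probe sets, 1 was called higher and 0 lower at an adjusted p under 0.05, against 0.522% called higher and 1.96% called lower among all 45037 probe sets (2.48% in either direction). Of all 1116 called probe sets 78.9% were lower, or 65.0% after quantile normalization. The total was 493, 431, 549 and 359 without pair 1, 2, 3 or 4, and 1674 without pair 5. Among the 7 members with a mean log2 level above 5 the count was the same, against 7.04% of 11215 such probe sets called in either direction. The median log2 change was 0.06 over the 12 members and 0.01 over all probe sets. Above 5 it was 0.26 for the 7 members and -0.05 for the 11215 probe sets. At an unadjusted p under 0.05 there were 6 of 12 members, with 14.8% of all probe sets, and 5 of 7 among the bright ones, with 30.9%.

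**Figure D1:**
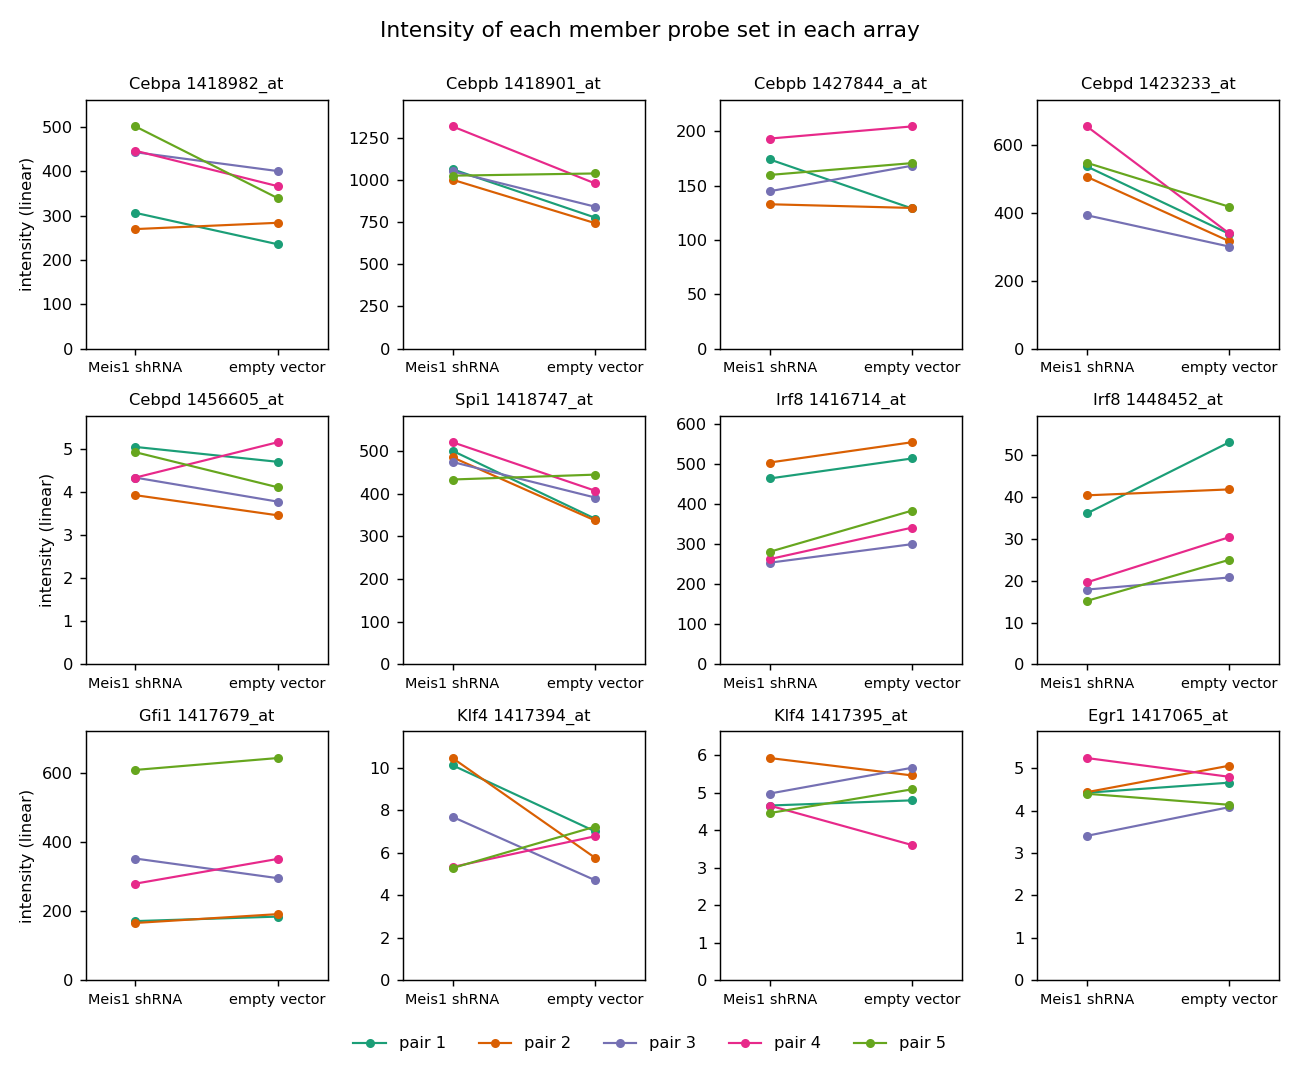
Intensity (linear scale, from 0) of the 12 member probe sets in the 10 arrays, Meis1 shRNA at the left and empty vector at the right of each panel, with a line for each of the 5 pairs. Cebpd 1423233_at slopes the same way in all 5 pairs, and Irf8 1416714_at the opposite way in all 5. The lines of Gfi1 differ more in height between pairs than between the arms, with pair 5 on top, while some of the lower lines cross.

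Within the C/EBP family, Cebpd encodes C/EBPδ, a factor induced on growth arrest and in the acute-phase response. The Cebpd probe set 1423233_at read 535.4, 505, 392, 653.3 and 546.2 in shRNA samples 1 to 5, against 337.3, 315.6, 299.9, 338.4 and 417 in their control partners. The shRNA arrays lay above the controls except that shRNA 3 was below control 5. The log2 change was 0.61 (SE 0.11, 95% interval 0.37 to 0.86, adjusted p = 0.0218 by limma), with pair differences of 0.67, 0.68, 0.39, 0.95 and 0.39. Being higher in all 5 pairs was found for 6.17% of all probe sets. The other Cebpd probe set, 1456605_at, was dim, with intensities of 3.92 to 5.04 in the shRNA arrays and 3.45 to 5.15 in the controls, and its change of 0.10 did not pass (adjusted p = 0.730). The unspiked bacterial Trpn control probe sets, a rough guide to background, had a mean log2 level of 1.83 to 2.03 per array, and this Cebpd probe set had 2.12.

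The Cebpd call did not hold with every pair left out. Without pair 1, 2 or 4 the adjusted p was 0.0897, 0.0869 and 0.0909, while the change stayed between 0.53 and 0.67 over all 5 omissions. The log2 3 prime to 5 prime ratio was higher with the shRNA by 0.01 in pair 5, the smallest difference, and by 0.19 in pair 4, the largest, and once it entered the fit the Cebpd change was 0.35 (adjusted p = 0.939), in a limma fit that called 0 of all probe sets (2504 at an unadjusted p under 0.05). Without moderation of the variances its adjusted p was 0.172.

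Cebpa encodes C/EBPα, whose loss blocks granulocyte formation. Its probe set 1418982_at read 306.5, 269.8, 443.4, 446.8 and 501.7 with the shRNA, against 235.5, 284, 400.8, 366.7 and 339.6 with the empty vector. In both arms samples 1 and 2 were the lowest, and the arms overlapped. The log2 change of 0.26 (SE 0.11, 95% interval 0.02 to 0.50, higher in 4 of 5 pairs) did not pass over all probe sets (adjusted p = 0.302).

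Cebpb encodes C/EBPβ, which drives granulocyte output under stress and macrophage genes. Its brighter probe set 1418901_at read 1063, 1001, 1051, 1317 and 1025 with the shRNA, against 776.9, 743.8, 841.3, 979.3 and 1038 with the empty vector. The shRNA arrays were the higher ones in pairs 1 to 4, and pair 5 was level (difference -0.02). The log2 change was 0.32 (SE 0.10, 95% interval 0.10 to 0.55, adjusted p = 0.158). The adjusted p was 0.0134 with trend and robust eBayes and 0.0425 in a fit of the 11215 brighter probe sets alone, and once the 3 prime to 5 prime ratio entered the fit the change was 0.14 (adjusted p = 0.989). The other Cebpb probe set, 1427844_a_at, gave 161 ± 23.8 with the shRNA and 160 ± 31.9 with the empty vector (SD, n = 5 each), with a change of 0.02 (95% interval -0.23 to 0.26, adjusted p = 0.974). Its sign was negative with median centring. The 2 probe sets of Cebpb gave nearly the same difference in pair 1 (0.45 and 0.43) and opposite signs in pair 3 (0.32 and -0.22).

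PU.1, encoded by Spi1, is the ETS factor at the head of the myeloid programme. Spi1 1418747_at read 500.7, 485.4, 474.5, 520.8 and 433.4 with the shRNA, against 341.7, 337.5, 391.2, 407.3 and 444.8 with the empty vector. Only shRNA 5 fell inside the range of the controls, below control 5. The log2 change was 0.33 (SE 0.11, 95% interval 0.09 to 0.58, adjusted p = 0.175), with pair differences of 0.55, 0.52, 0.28, 0.35 and -0.04. With trend and robust eBayes the adjusted p was 0.0369, and its change was 0.19 once the 3 prime to 5 prime ratio entered the fit.

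**Figure D2:**
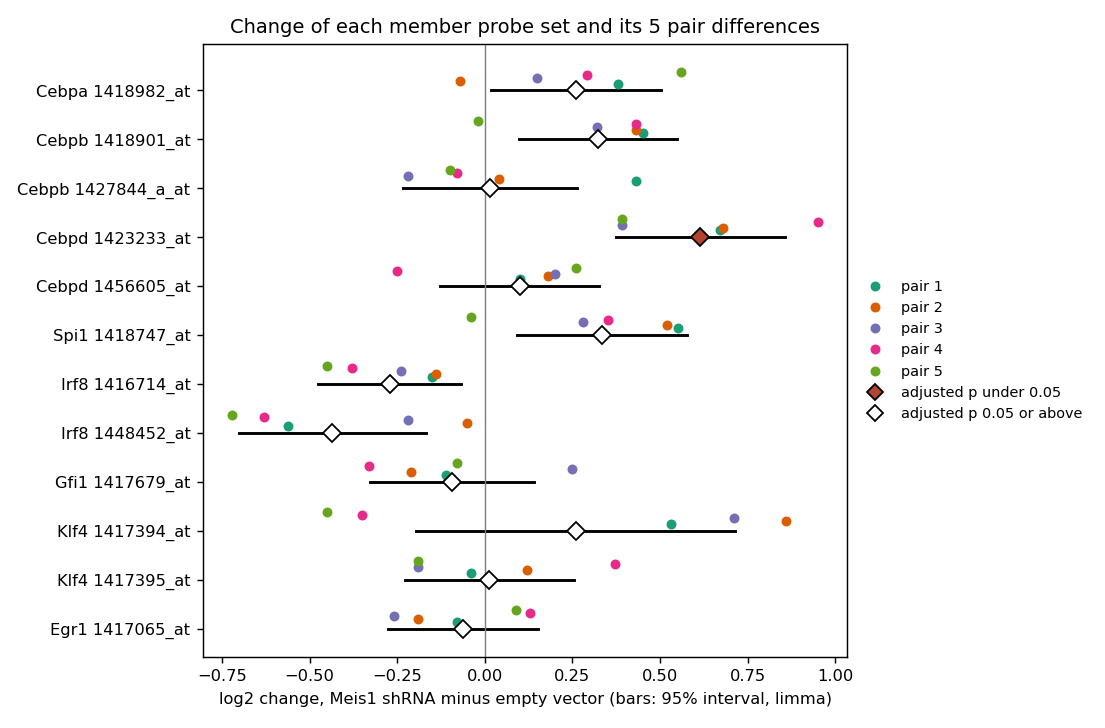
Log2 change (Meis1 shRNA minus empty vector) of the 12 member probe sets, as diamonds with 95% intervals from limma, and the 5 pair differences as coloured points above each. Only Cebpd 1423233_at, at 0.61, had an adjusted p under 0.05, and both Irf8 probe sets lie to the left of 0 with their intervals.

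Irf8, the interferon regulatory factor that directs monocytes and dendritic cells and restrains neutrophils, read lower with the shRNA in every pair without passing the test. Irf8 1416714_at read 464.7, 504.6, 254.1, 263.1 and 281.4 with the shRNA, against 514.7, 555.3, 300.5, 341.8 and 384.4 with the empty vector. Each shRNA array was below its partner, yet samples 1 and 2 of both arms stood above all of samples 3 to 5, so the arms overlapped. The log2 change was -0.27 (SE 0.09, 95% interval -0.47 to -0.07, adjusted p = 0.192). The dimmer probe set 1448452_at read 36.1, 40.5, 17.9, 19.6 and 15.2 with the shRNA, against 53.2, 41.9, 20.8, 30.4 and 25.0 with the empty vector. It was likewise lower in 5 of 5 pairs and higher in samples 1 and 2, with a change of -0.44 (SE 0.12, adjusted p = 0.107). Being lower in all 5 pairs was found for 8.56% of all probe sets. In a fit of the 11215 brighter probe sets alone, 1416714_at had an adjusted p of 0.0412.

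Gfi1, the repressor that promotes neutrophils and holds down monocyte genes, did not pass either. Its probe set 1417679_at read 170.7, 165.3, 351.5, 278.9 and 607.5 with the shRNA, against 183.7, 190.8, 294.8, 350.4 and 641.9 with the empty vector. The pairs were ordered alike in both arms at their ends, with samples 1 and 2 lowest and sample 5 highest. The log2 change was -0.09 (SE 0.10, 95% interval -0.33 to 0.14, adjusted p = 0.755), an interval that leaves room for levels from 0.797 to 1.10 times the control.

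Klf4, a zinc finger factor of monocyte differentiation, and Egr1, an immediate early factor linked to macrophage fate, were both dim. Klf4 1417394_at read 5.27 to 10.4 with the shRNA and 4.71 to 7.22 with the empty vector, and its change of 0.26 (95% interval -0.20 to 0.71, adjusted p = 0.635) was positive in pairs 1 to 3 and negative in pairs 4 and 5. Klf4 1417395_at and Egr1 1417065_at had mean log2 levels of 2.29 and 2.15, close to the Trpn controls, and changes of 0.01 (adjusted p = 0.977) and -0.06 (adjusted p = 0.834). At such levels a fall could hardly show.

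For 9 of the 12 member probe sets the differences between the 5 pairs took more of the spread than those between the arms. The pairs have 4 degrees of freedom and the arms 1. The share of all probe sets with this order was not computed, so the count is not read as a trait of the members. Of the sum of squares of log2 levels over the 10 arrays, the pairs took 97.5% for Gfi1, 86.7% for Irf8 1416714_at, 80.6% for Irf8 1448452_at and 75.2% for Cebpa, and the shRNA took 0.471%, 11.0%, 14.4% and 14.7% of the same. For Cebpd 1423233_at and Spi1 the order was reversed, with 69.5% and 64.3% for the shRNA and 22.4% and 9.88% for the pairs. Cebpb 1418901_at lay between, with 48.5% for the shRNA and 37.0% for the pairs. The other Cebpb probe set, 1427844_a_at, had 0.118% for the shRNA and 75.3% for the pairs. Among the dim probe sets, the pairs took 76.2% for Egr1, 70% for Klf4 1417395_at and 67.6% for Cebpd 1456605_at. For Klf4 1417394_at they took 31.7%. A moderated F test of the pair terms in the same fit, chosen after the values had been seen, called 3 of the 12 member probe sets, against 0.753% of all probe sets. They were Gfi1 (adjusted p = 0.00547) and both of Irf8 (0.0393 for 1416714_at and 0.0341 for 1448452_at). Cebpa had an adjusted p of 0.218, and it passed with trend and robust eBayes. The labels give no date or batch for the pairs.

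**Figure D3:**
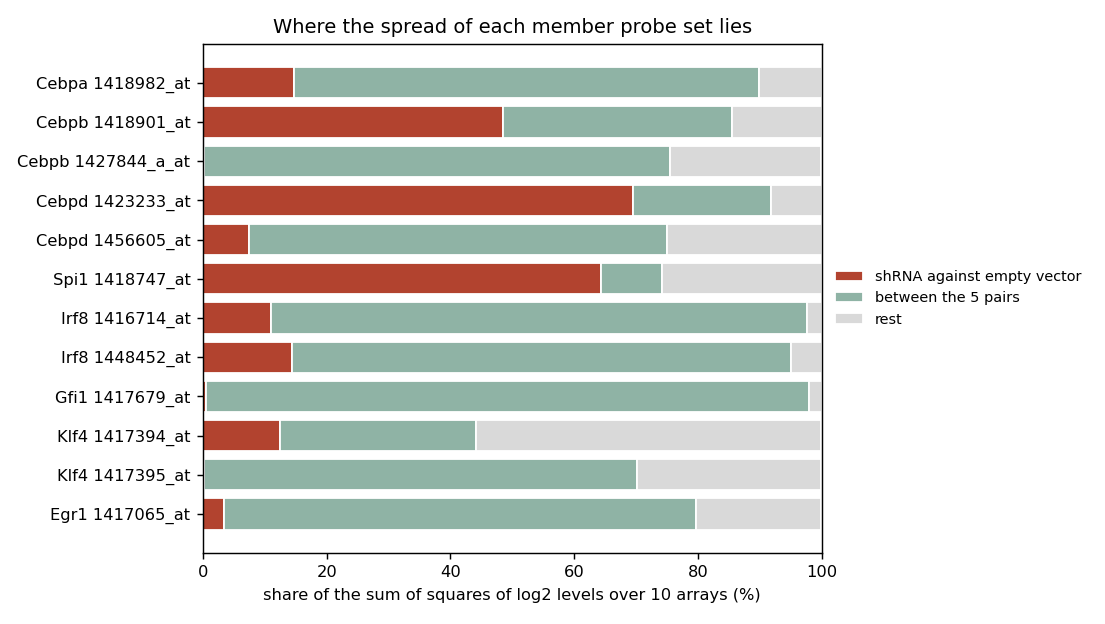
Shares of the sum of squares of log2 levels over the 10 arrays for each member probe set, split into shRNA against empty vector (red), differences between the 5 pairs (green) and the rest (grey). The pairs take 97.5% for Gfi1 and the shRNA 69.5% for Cebpd 1423233_at.

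The balance between partner factors was compared as ratios within an array, using the brightest probe set of each gene. There were 7 ratios, also chosen after the values had been seen. The log2 ratio of Spi1 to Irf8 was higher with the shRNA in 5 of 5 pairs, by 0.70, 0.66, 0.52, 0.73 and 0.41, a mean of 0.60 ± 0.14 (SD, n = 5; exact sign-flip permutation p = 0.0625, adjusted over the 7 ratios 0.146). The ratio of Cebpa to Irf8 was higher in 5 of 5 pairs by a mean of 0.53 ± 0.35, and that of Cebpd to Cebpb in 5 of 5 by 0.29 ± 0.18, with the same p. No ratio could pass by this sign-flip test, whose smallest p with 5 pairs is 0.0625. The ratio of Cebpa to Spi1, whose balance steers granulocyte against macrophage fate, changed by -0.07 ± 0.43, negative in pairs 1 to 4 and 0.60 in pair 5 (exact p = 0.625). A ratio does not tell which of its partners changed.

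Genes with the most similar profile were found by the root mean square distance between gene-centred log2 levels over the 10 arrays, among 6721 genes with a mean log2 level above 5. This was done for the 4 members that spanned at least 1 log2 unit, and since the arrays share pairs the distances are descriptions only. For Irf8 the nearest were Mef2c (0.112), Hes6 (0.149) and Col19a1 (0.153), where the median gene was at 0.436. For Gfi1 they were Fcgr2b (0.208), Hp (0.230) and Sec24d (0.232), with a median of 0.726. For Cebpa they were Otud4 (0.123), Socs7 (0.125) and Zfp451 (0.136), with a median of 0.400. For Cebpd they were Impact (0.154), Baz2a (0.156) and Hpcal1 (0.173), with a median of 0.433.

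**Figure D4:**
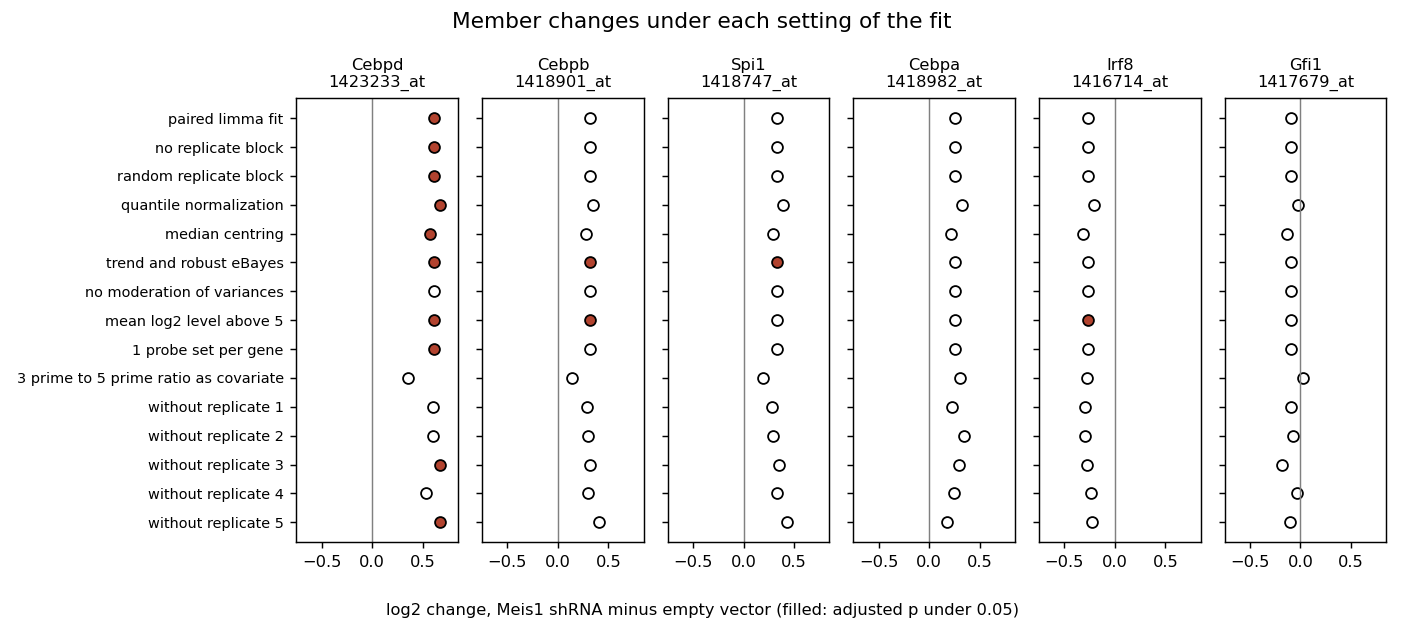
Log2 change (Meis1 shRNA minus empty vector) of 6 member probe sets under the paired limma fit and 14 other settings, filled where the adjusted p was under 0.05. Cebpd is filled under the paired fit and 9 of the 14 others, and the sign of Cebpd, Cebpb, Spi1, Cebpa and Irf8 is the same under all of them.

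Relatives and partners of the members were read from lists, each gene by its brightest probe set, with p adjusted over all probe sets. By that reading 3.16% of 18193 genes were called, 0.813% higher and 2.34% lower, with a median log2 change of 0.00. Of 21 measured relatives in the same families, which include Cebpg, Gfi1b, Spib and other IRF, KLF and EGR genes, 0 rose, 1 fell and 20 missed the threshold, the median change being 0.13. The gene that fell was Klf10, a repressor induced by TGF-beta, with 36.8 ± 5.68 in the shRNA arrays and 54.2 ± 7.94 in the controls (SD, n = 5 each), and its groups did not overlap, which held for 3.95% of all probe sets. Its log2 change was -0.56 (SE 0.09, adjusted p = 0.0156), and the call was lost when pair 1, 2 or 4 was omitted (adjusted p up to 0.0758).

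Of 34 measured cofactors and regulators, 1 rose, 2 fell and 31 missed the threshold, the median change being -0.06. Jun, the AP-1 subunit that can dimerise with C/EBP proteins and works with PU.1, rose by 0.79 (SE 0.10, adjusted p = 0.0053). It read 86.0, 77.0, 79.3, 182.6 and 27.7 with the shRNA, against 52.4, 55.0, 42.2, 91.3 and 15.3 with the empty vector. Jun was higher in each shRNA array than in its partner, but the levels of the pairs spread so widely that an unpaired fit gave an adjusted p of 0.560. Cdk2, a kinase that C/EBPα binds and inhibits, fell by 1.67 in log2 units (adjusted p = 0.00048). Runx1, which acts upstream of Spi1, fell by 0.81 (adjusted p = 0.0112, or 0.0516 without pair 2, 0.0646 without pair 4 and 0.127 unpaired). Of the 6 Runx1 probe sets only the brightest was read, and its mean log2 level was 4.72, under the cut of 5. The C/EBPα antagonists Trib1 and Trib2 and the GFI1 corepressors Kdm1a and Rcor1 did not pass (adjusted p from 0.190 to 0.821). Trib1 and Trib2 were dim, with mean log2 levels of 2.37 and 2.5, where a fall could hardly show.

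**Figure D5:**
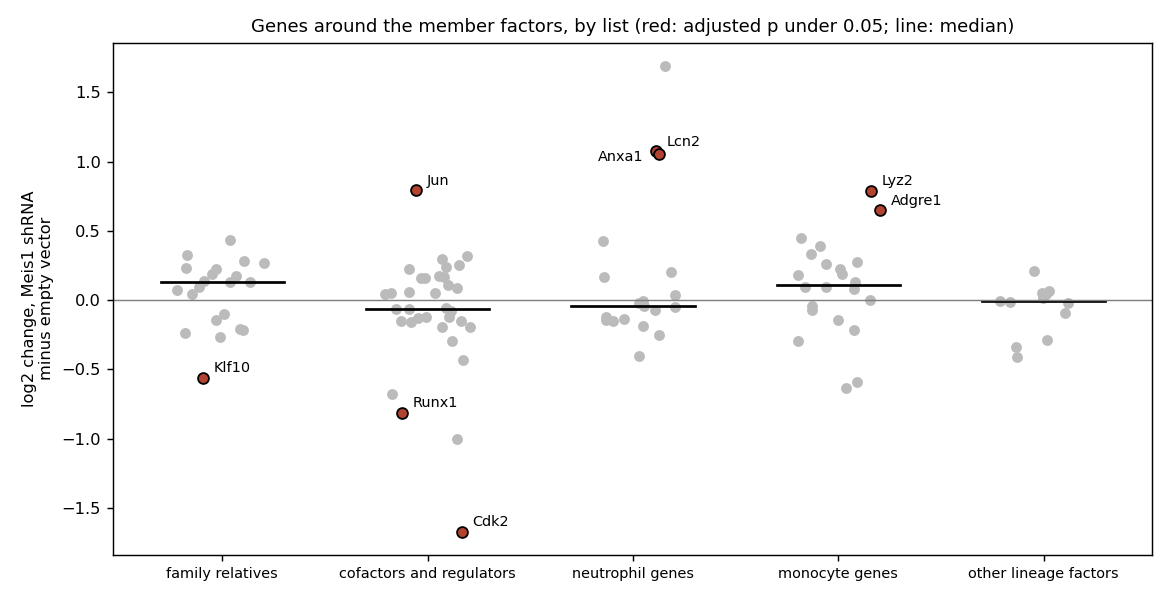
Log2 change (Meis1 shRNA minus empty vector) of the genes in 5 lists, each gene by its brightest probe set, with a line at the list's median and called genes in red with their names. The called genes are Klf10, Runx1 and Cdk2 below 0 and Jun, Lcn2, Anxa1, Lyz2 and Adgre1 above 0.

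Genes listed for neutrophils and for monocytes were counted in the same way. The neutrophil list is not limited to mature cells, as it includes Mpo, Elane, Prtn3 and Ctsg, read above as progenitor markers. Of 19 measured neutrophil genes, 2 rose, 0 fell and 17 missed the threshold, the median change being -0.04. They were Lcn2, an iron-sequestering granule protein (1.07, SE 0.12, adjusted p = 0.00376), and Anxa1, an annexin of resolving inflammation (1.06, SE 0.12, adjusted p = 0.00326). In all 5 pairs, 3 of the 19 were higher and 4 were lower. The 3 higher ones were Lcn2, Anxa1 and the uncalled S100a8 (1.691, SE 0.405, adjusted p = 0.0727 by limma). The 4 lower ones were Elane (-0.405), Ms4a3 (-0.254), Mpo (-0.148) and Prtn3 (-0.134), none of them called. Camp, Ltf and Ngp, the secondary granule genes that C/EBPε controls, had mean log2 levels of 2.26, 2.27 and 2.04 and did not pass. Of 22 measured monocyte genes, 2 rose, 0 fell and 20 missed the threshold, the median change being 0.11. They were Lyz2, lysozyme (0.79 and higher in 4 of 5 pairs, SE 0.16, adjusted p = 0.0423), and Adgre1, which encodes the F4/80 antigen of macrophages (0.65, SE 0.12, adjusted p = 0.0275). In the unpaired fit Lcn2, Lyz2 and Adgre1 had adjusted p of 0.432, 0.523 and 0.436, and once the 3 prime to 5 prime ratio entered the fit their changes were 0.70, 0.30 and 0.51. Changes were above 0 for 15 of the 22 monocyte genes, while the uncalled Mpeg1 (-0.635) and Ccr2 (-0.589) read lower in 4 of 5 pairs. Both monocyte calls were lost when pair 1, 2, 3 or 4 was omitted (adjusted p up to 0.183 for Lyz2 and 0.118 for Adgre1). Of 12 measured transcription factors of other lineages, 0 passed by limma (3 at an unadjusted p under 0.05), with a median of -0.01, at summed intensities of 2007 to 2417 in the shRNA arrays and 1991 to 2519 in the controls. Unlike most of the other-lineage markers above, 6 of these 12 had a mean log2 level above 5, the highest being Nfe2 (10.31) and Ikzf1 (9.36).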

How the data were processed

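The authors deposited probe set intensities made with RMA, per the submitters' processing notes; its version and settings, and a genome build, were not given in the sources used. The linear scale was read from the values (medians per array of 6.25 to 6.71). They were log2-transformed with no pseudocount, and 64 control probe sets of 45101 were set aside. The arms were compared by lmFit and eBayes of limma 3.58.1 (R 4.3.3), two-sided, with a fixed term for each pair, and p-values adjusted by Benjamini-Hochberg over 45037 probe sets (threshold 0.05). The code was tested on simulated data, with changes set in probe sets whose mean log2 level exceeded 5. It called 38 of 100 with a log2 change of 0.6 in size and 89 of 100 with 1. All other probe sets were simulated without a change, while the real fit called 1116. The shares called therefore check the code and do not give the sensitivity in the real arrays. Smaller changes were not simulated. The pairing comes from the labels; among the 11215 probe sets whose mean log2 level exceeded 5, deviations of same-numbered samples from their group means correlated at 0.600, 0.462, 0.339, 0.310 and 0.557. Correlations between arrays ran from 0.986 to 0.996. The number of arrays limits the precision. All 12 member probe sets matched RefSeq genes by Entrez identifier, with 0 symbols changed. Per list, named genes were up to 3 called with the largest change, and any called relative or cofactor. The members and lists were chosen with earlier results of these data known. The value columns of no sample numbered 0.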

Additional observations from a re-analysis of the deposited data

Results flagged for a closer look

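Over the 12 member probe sets and both arms, 24 groups of 5 arrays were searched for an array far from the others, and 1 was found, where chance alone gives about 1 in 20. Cebpb 1418901_at read 1317 in shRNA sample 4, and its gap to the nearest of the other shRNA arrays was 0.781 of the range of the group on the log2 scale, above Dixon's critical value of 0.71. Without pair 4 the change of that probe set was 0.30, against 0.32 with all pairs.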

How the results depend on the processing

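Cebpd 1423233_at kept its direction under all 14 other settings (0.35 to 0.67) and its side of the threshold under 9. Cebpa, Cebpb 1418901_at, Spi1 and both Irf8 probe sets kept their direction under every setting that held them. The pairing changed no member's call: without the sample number as a replicate block 816 probe sets and 1 member passed, and with it as a random block 1021 and 1. Trend and robust eBayes called 2309 probe sets and 3 members, and the filter on a mean log2 level above 5 called 2040 and 3, with fewer tests and with the variance moderation estimated anew. Without moderation of the variances 33 and 0 passed (5 members at an unadjusted p under 0.05). With 1 probe set per gene 739 genes passed. With the 3 prime to 5 prime ratio in the model as a covariate 0 and 0 passed (2504 and 0 at an unadjusted p under 0.05), in a fit that estimates the arm difference less precisely because the ratio differs between the arms. Leaving out each pair gave 359 to 1674 probe sets and 0 to 1 members. Between pairs, trend and robust eBayes called 1243 probe sets and 4 members, and the filter on dim probe sets 690 and 2. Signs turned only for changes near 0, and the cause was not tested. Klf4 1417395_at was at -0.02 after quantile normalization, -0.03 with median centring, -0.24 with the covariate and -0.08 to 0.06 over the omissions of a pair (-0.08 without pair 4, -0.01 without pair 2). Cebpb 1427844_a_at was at -0.02 with median centring, -0.02 with the covariate and -0.09 to 0.07 over the omissions, and Gfi1 was at 0.02 with the covariate. Dim probe sets near the Trpn controls limit what can be said of Klf4 and Egr1.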
